A study of Mus musculus with 30 samples.

Results

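The collagen chain genes of mouse, 44 of the 29861 genes listed, were examined in a primary tail fibroblast line exposed to 8 small molecules. They are all the listed protein-coding genes whose symbol has the form Col, number, a, number, so membership did not depend on any measured level. Of the 44, 34 reached 1 TPM (transcript level scaled for length and library total) in at least 3 of 30 libraries and were tested. The line, named CCG-HTA-1, came from tails of UMHet3 mice, a genetically mixed stock, collected at 5 to 8 weeks of age, except that Dihydrorotenone replicate 1 carries an age of 8 to 11 weeks. Cells at passage 4 were grown in high-glucose DMEM lacking pyruvate, with 10% fetal calf serum, in ambient oxygen, at about 80% confluence. Each agent was added 24 h after plating, and total RNA depleted of ribosomal RNA was sequenced 48 h later. The agents were Antimycin A and Dihydrorotenone (inhibitors of mitochondrial respiration), Diphenyleneiodonium Cl (an inhibitor of flavoenzymes), Cardamonin (a chalcone made by plants), BerberineA as the labels spell it, Clofilium tosylate (a blocker of potassium channels), AEG 3482 (an inhibitor of JNK-dependent cell death) and Podofilox (which prevents microtubule assembly). There were 3 libraries for each compound and 6 for the solvent DMSO, and doses are not given in the sources used here. The study's title asks which stress resistance pathways need NRF2, the transcription factor that induces antioxidant genes. All libraries came from this 1 line, so a p-value here measures the spread between cultures or libraries and not between animals.

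Collagens are the main structural proteins of connective tissue, and fibroblasts are their chief source in skin and tendon. Each molecule is a triple helix of chains in which glycine recurs at regular steps. Fibrillar collagens assemble into the banded fibres that bear tension, basement membrane collagens form sheets, and beaded collagen VI forms fine filaments around cells. FACIT collagens decorate fibrils without forming them, and the remaining classes span membranes, anchor epithelia or build short-chain networks. Chains are hydroxylated, folded with chaperones, secreted and trimmed before they can assemble.

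Because of that scaling, TPM levels may be compared between genes within a library. The listed genes held 92.7% to 93.7% of the scale's full total in each library, and 12229 to 12700 genes reached 1 TPM. Sequencing depth cannot be read from TPM, so precision was judged from replicates alone. Library numbers ran in sequence within each group, so group and library batch cannot be told apart. The fibroblast markers Pdgfra, Pdgfrb, Dcn, Lum, Thy1, Vim and Fap were all detected and summed to 4516 to 5295 TPM in DMSO, to 2029 to 2268 TPM in Cardamonin and to 4358 to 5318 TPM in the other compounds. The tendon markers Tnmd, Scx and Mkx were also at 1 TPM or more in all 30 libraries and summed to 127 to 143 TPM in DMSO, to 69.2 to 74.4 TPM in Cardamonin and to 81.4 to 87.2 TPM in AEG 3482. Of markers of other cell types, 1 of 4 for keratinocytes reached 1 TPM in at least 3 libraries (Krt10, 1.02 to 2.38 TPM), 1 of 5 for chondrocytes (Sox9, 3.13 to 7.29 TPM), 3 of 4 for macrophages (Cd68, 11.5 to 41.4 TPM, Adgre1 and Csf1r), 1 of 3 for adipocytes (Fabp4, 5.59 to 32.2 TPM), 1 of 4 for endothelium (Tek), 2 of 4 each for osteoblasts, smooth muscle and melanocytes, and 0 of 4 for skeletal muscle. Krt5, Myod1 and Plin1 were listed at 0 in every library, and Krt14, Krt1, Ckm, Acan, Matn1 and Matn3 had at most 0.0653 TPM. The macrophage sum was 24.4 to 29.5 TPM in DMSO, 28.6 to 44.9 TPM in Cardamonin and 17.4 to 27.1 TPM in the other compounds. Lower collagen RNA from fewer collagen-making cells and from less RNA per cell cannot be told apart in such bulk samples.

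In DMSO the fibrillar genes dominated. Col3a1 (collagen III, abundant in extensible tissue) had 2726 ± 198 TPM (SD, n = 6) and ranked 32 among all listed genes, and Col1a2 and Col1a1, the chains of collagen I, had 1671 ± 158 TPM and 999 ± 169.7 TPM. Those 3 genes made up 62.5 ± 0.676% of the summed collagen TPM. The next in order were Col6a1 (695 ± 43.2 TPM) and Col6a2 (413 ± 31.3 TPM) of beaded collagen VI, with the fibril-regulating Col5a2 between them (561 ± 26.2 TPM). Their ranges in DMSO did not overlap, nor did those of Col3a1, Col1a2 and Col1a1. The FACIT gene Col12a1 followed at 239 ± 15.4 TPM. Below it came Col4a1 at 194 ± 14.4 TPM, Col5a3 at 188 ± 13.9 TPM, Col4a2 at 172 ± 16.1 TPM and Col6a3 at 167 ± 14.2 TPM, and these 4 neighbours lay within each other's spread. Col5a1 and Col18a1, at 138 ± 15.2 TPM and 138 ± 9.42 TPM, also overlapped.

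By class, all 11 fibrillar and all 6 beaded genes reached the 1 TPM limit. So did 3 of 6 basement membrane genes, 6 of 9 FACIT genes, both multiplexins, all 3 short-chain network genes and the anchoring fibril gene Col7a1. Of 4 transmembrane genes only Col23a1 did, and of Col26a1 and Col28a1 only the former. The 10 untested genes were Col4a3, Col4a4, Col4a6, Col9a1, Col13a1, Col17a1, Col19a1, Col22a1, Col25a1 and Col28a1. None of these 10 reached 1 TPM in any library, though each was above 0 in at least 1. Limits of 0.5 and 2 TPM would have left 35 and 30 members, and 21 members held 1 TPM in all 30 libraries. Near the limit, Col9a3 had a DMSO mean of 0.868 TPM and Col2a1 0.681 TPM inside it, and Col28a1 had 0.832 TPM outside it. Col2a1, the main chain of cartilage fibrils, was thus present only at trace level.

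Summed over the 44 genes, collagen RNA took 0.922 ± 0.0570% of the listed TPM in DMSO (SD, n = 6). The share in Cardamonin was 0.428 ± 0.0679% (SD, n = 3), with 0.352% to 0.482% in its libraries, and all lay below the DMSO range of 0.862% to 1.01%. In AEG 3482 it was 1.13 ± 0.0659%, with every library above that range. Antimycin A had 0.639 ± 0.0509%, also wholly below DMSO. Between these stood Dihydrorotenone at 0.798 ± 0.0945%, Diphenyleneiodonium Cl at 0.788 ± 0.0250%, Podofilox at 0.768 ± 0.0354%, BerberineA at 0.745 ± 0.0577% and Clofilium tosylate at 0.743 ± 0.0395%, whose ranges overlapped one another. Every library of these 5 compounds was below the DMSO range as well. The sum is a description, carried largely by its 3 most abundant genes, and was not tested. Of those 3, only Col3a1 had a higher mean in AEG 3482 than in DMSO (4732 against 2726 TPM). The means of Col1a2 (1105 against 1671 TPM) and Col1a1 (878 against 999 TPM) were lower there. In the fit given below, 7 of the 34 tested members rose in AEG 3482 and 15 fell. The lower fibroblast and tendon marker sums in Cardamonin, given above, moved with its lower collagen share, and their part in that result was not tested. In other compounds the tendon sum and the share did not always move together. AEG 3482, with the highest share, had a tendon sum of 81.4 to 87.2 TPM, below the 127 to 143 TPM of DMSO. With lower shares, the sum was above DMSO in Antimycin A (152 to 157 TPM) and BerberineA (146 to 153 TPM) and below it in Podofilox (111 to 123 TPM). Fibroblast sums of the other compounds overlapped DMSO.

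**Figure D1:**
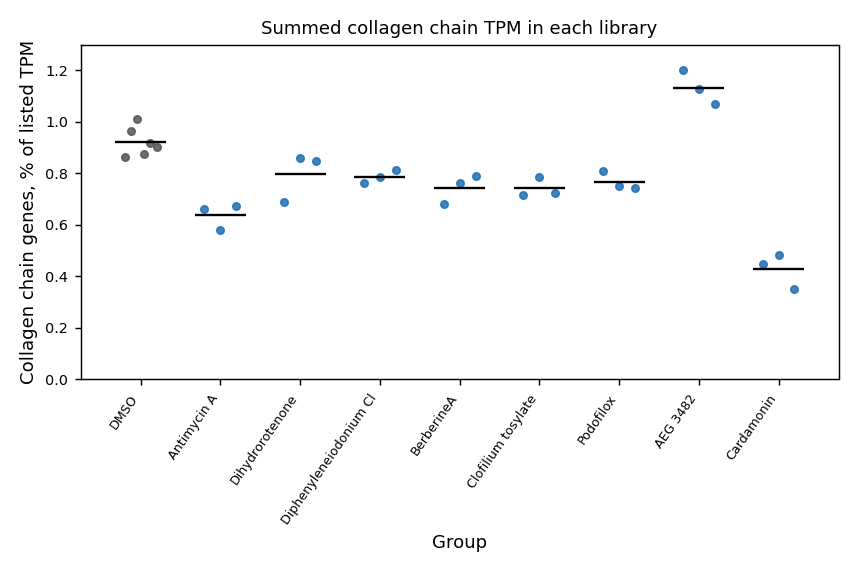
Summed TPM of the 44 collagen chain genes as a percentage of the listed TPM (y axis) in each group (x axis), with points for libraries and bars for group means. AEG 3482 libraries, mean 1.13%, lie above the DMSO points and Cardamonin libraries, mean 0.428%, lie lowest.

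Each compound was compared with the same 6 DMSO libraries in 1 limma fit on log2(TPM + 1) over 13644 genes, with a threshold of 0.05 on the adjusted p. Fold changes on this scale understate those of genes with few TPM. In Cardamonin 1 of the 34 members rose and 26 fell, beside 70.3% of all tested genes called (37.3% higher and 33% lower), and the members' median log2 fold change was −1.13 against 0.033 for all genes tested. In Podofilox 4 of the 34 members rose and 22 fell (all genes 46.2%, 26.2% and 20%), with a median of −0.42 against 0.036 for all genes tested. The 4 rises were 2 without Podofilox replicate 1, and the 1 rise in Cardamonin was lost without Cardamonin replicate 3. With AEG 3482, 7 of the 34 members rose and 15 fell (all genes 68.1%, 41.3% and 26.8%), and the median was −0.15 against 0.10 for all genes tested. The 22 members called there are 64.7% of 34, near the background share. Median-ratio scaling brings the median over all genes close to 0 by construction (−0.0079 for AEG 3482). Under it 7 members rose and 17 fell in AEG 3482, with a median of −0.25. Fold changes given here are without that scaling unless stated. Under Antimycin A 2 of the 34 members rose and 20 fell (all genes 37.3%, 21.8% and 15.5%), with a median of −0.38 against 0.032 for all genes tested.

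The other 4 compounds moved fewer members. With Clofilium tosylate 2 of the 34 members rose and 15 fell (all genes 23.4%, 10.9% and 12.5%), with a median of −0.21 against −0.00015 for all genes tested. Its rises were 1 without Clofilium tosylate replicate 2. In Diphenyleneiodonium Cl 5 of the 34 members rose and 14 fell (all genes 25.7%, 14% and 11.7%), with a median of −0.16 against 0.017 for all genes tested. The 5 rises were 2 without DMSO replicate 1, DMSO replicate 5 or Diphenyleneiodonium Cl replicate 2, and 3 without its replicate 1 or 3. In BerberineA 1 of the 34 members rose and 13 fell (all genes 21.7%, 12.6% and 9.16%), with a median of −0.22 against 0.023 for all genes tested. The 1 rise there became 0 without BerberineA replicate 2 or 3 and 2 without BerberineA replicate 1, DMSO replicate 2 or DMSO replicate 4. Dihydrorotenone had 1 rise and 9 falls (all genes 14.4%, 4.95% and 9.43%) and a median of −0.17 against −0.033 for all genes tested. Its falls numbered 4 without Dihydrorotenone replicate 1, the library that was lowest of its group in 28 of the 34 members, and its 1 rise was lost without any of DMSO replicates 1, 3, 4 and 5 or Dihydrorotenone replicates 2 and 3.

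Falls of at least 2-fold on the fitted scale were counted in 18 members for Cardamonin (14.5% of all genes changed that much in either direction), 8 for AEG 3482 (10.4%), 7 for Podofilox (3.31%), 5 for Antimycin A (2.39%) and 1 for Diphenyleneiodonium Cl (1.04%). Clofilium tosylate, BerberineA and Dihydrorotenone had 0, beside 0.726%, 0.638% and 0.191% of all genes. No member rose that much in any compound. The balance of all called genes moved with scaling: the higher share went from 34.4% to 50.7% in Dihydrorotenone, from 57.9% to 47.7% in BerberineA and from 60.7% to 49.4% in AEG 3482 after median-ratio scaling. Member counts moved by at most 2 under that scaling in these comparisons, and no called member change reversed.

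**Figure D2:**
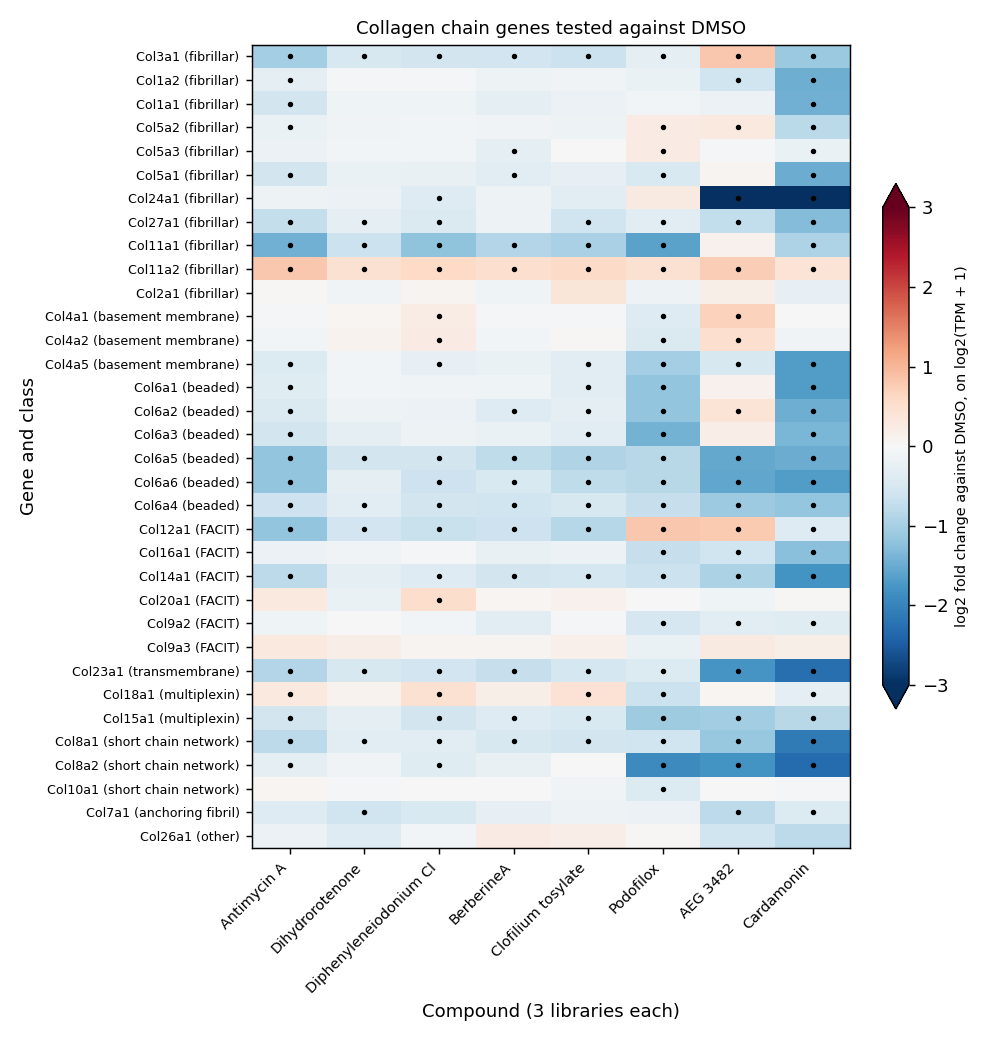
log2 fold change against DMSO (colour, on log2(TPM + 1), limits −3 and 3) of the 34 tested collagen chain genes (rows, by class) in 8 compounds (columns), with dots for an adjusted p under 0.05. Cardamonin has 26 falls, and Col24a1 passes the colour limit in Cardamonin (−3.82) and AEG 3482 (−3.49).

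Changes of genes with few TPM, such as Col6a6 (means of 2.41 TPM in DMSO and 0.0573 TPM in Cardamonin), are compressed on log2(TPM + 1). On that scale the largest change among all members was in Col24a1 (ENSMUSG00000028197, chromosome 3, 145292472 to 145552011), a minor fibrillar chain known from developing bone and cornea. DMSO libraries held 40.1, 48.1 and 54.2 TPM (lowest, median and highest of 6). Cardamonin libraries held 2.61, 3.58 and 1.34 TPM and AEG 3482 libraries 4.02, 2.81 and 3.05 TPM. All 6 of those libraries lay far below the lowest DMSO library. The log2 fold change was −3.82 (SE 0.14, adjusted p = 2.27e-18) in Cardamonin and −3.49 (SE 0.14, adjusted p = 2.79e-17) in AEG 3482. The other 6 compounds ranged from 34.9 to 60.5 TPM, and the highest values were those of Podofilox, 60.5, 52.7 and 56.7 TPM, whose difference from DMSO of 0.27 did not pass (limma adjusted p = 0.117). None of the 31-base words in its transcripts occurs in another annotated gene. The annotation places D530037P16Rik on the same strand and 9530034A14Rik on the opposite strand within it, and whether counting used strand is not given in the sources used here.

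Upstream sequence is shown for 3 fibrillar genes whose levels differed between compounds, Col24a1, Col3a1 and Col11a1, which were chosen after their values were seen. Among fibrillar genes, but not among all members, these 3 had the widest range of log2 fold change (4.09, 1.91 and 1.73). Each sequence is the 150 bases before the RefSeq start (GRCm38.p6, plus strand), at chr3:145292322-145292471, chr1:45311388-45311537 and chr3:114030390-114030539 in that order. Capitals mark matches, on either strand, to 5 short motifs: CCAAT, the GC box GGGCGG, the TATA box TATAAA, the AP-1 site TGANTCA and TGANNNNGC, the core of the antioxidant response element that NRF2 binds.
Col24a1: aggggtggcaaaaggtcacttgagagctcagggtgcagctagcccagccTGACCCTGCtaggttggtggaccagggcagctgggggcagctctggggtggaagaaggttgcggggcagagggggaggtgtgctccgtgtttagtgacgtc
Col3a1: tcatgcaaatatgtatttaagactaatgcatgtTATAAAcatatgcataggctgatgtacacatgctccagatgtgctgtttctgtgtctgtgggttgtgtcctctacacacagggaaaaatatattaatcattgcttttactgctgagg
Col11a1: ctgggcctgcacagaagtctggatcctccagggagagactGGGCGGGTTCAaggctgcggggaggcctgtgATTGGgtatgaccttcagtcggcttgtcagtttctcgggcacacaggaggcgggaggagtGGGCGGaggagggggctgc
Col24a1 has 1 match to TGANNNNGC, Col3a1 has 1 to TATAAA, and Col11a1 has 2 to GGGCGG, 1 to CCAAT read on the other strand and 1 to TGANNNNGC on the other strand that overlaps a GC box. Over the 32851 windows of the RefSeq table, each from 250 bases before to 50 after a start, TGANNNNGC occurred in 41.3%, so a match is common. Of the 38 windows of the 35 members found there, 39.5% held it. The GC box was in 60.5% of members' windows and 35.7% of all, CCAAT in 34.2% and 37.4%, TATAAA in 13.2% and 13.6%, and TGANTCA in 2.63% and 7.81%. Matches to different motifs may overlap, and a match is letters only, not a bound site.

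Col3a1 (ENSMUSG00000026043, chromosome 1, 45311538 to 45349706) moved in opposite directions under different compounds. Its DMSO libraries held 2486, 2737 and 3027 TPM (lowest, median, highest). AEG 3482 libraries held 4951, 4722 and 4522 TPM, all above DMSO, a log2 fold change of 0.80 (SE 0.10, adjusted p = 5.68e-08). Antimycin A libraries held 1408, 1192 and 1429.95 TPM and Cardamonin libraries 1399, 1447 and 974 TPM, all below DMSO, with log2 fold changes of −1.02 (SE 0.10, adjusted p = 4.70e-09) and −1.12 (SE 0.10, adjusted p = 9.77e-11). Clofilium tosylate, at 1691, 1829 and 1698 TPM, gave −0.65 (SE 0.10, adjusted p = 1.68e-05). BerberineA, Diphenyleneiodonium Cl and Dihydrorotenone, ranging from 1684 to 2139.8 TPM, also fell, with log2 fold changes of −0.57, −0.55 and −0.47. In Podofilox the change was −0.27 on the same scale, a fall that did not hold without Podofilox replicate 2, at −0.27 (adjusted p = 0.0546), or replicate 3, at −0.22 (adjusted p = 0.121). Transcripts of Col3a1 share 1.12% of their 31-base words with the overlapping gene Gm47302.

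The collagen I chains, which form 1 heterotrimer, fell together in Cardamonin. Col1a1 (ENSMUSG00000001506, chromosome 11, 94936224 to 94953042) had 821, 935 and 1275 TPM in DMSO and 382, 426 and 289 TPM in Cardamonin, with no overlap and a log2 fold change of −1.45 (SE 0.13, adjusted p = 2.44e-10). Col1a2 (ENSMUSG00000029661, chromosome 6, 4504814 to 4541544) had 1473, 1659.8 and 1925 TPM in DMSO and 618, 678 and 514 TPM in Cardamonin, a change of −1.47 (SE 0.088, adjusted p = 7.85e-14). In AEG 3482 Col1a2 fell to 1233, 1087 and 994 TPM (−0.60, SE 0.088, adjusted p = 1.57e-06), while Col1a1, at 1045, 837 and 752 TPM, overlapped DMSO and did not pass (−0.18, limma adjusted p = 0.219). Antimycin A lowered Col1a1 to 693, 596 and 731 TPM (−0.56, SE 0.13, adjusted p = 0.00132). Its smaller fall in Col1a2, −0.28, was not called without Antimycin A replicate 2, at −0.22 (adjusted p = 0.1). In the other 5 compounds neither chain passed, though Col1a2 in Podofilox was near the threshold (−0.21, limma adjusted p = 0.053). After median-ratio scaling Col1a2 passed in Podofilox (−0.25, limma adjusted p = 0.0101) and Col1a1 in AEG 3482 (−0.31, limma adjusted p = 0.0265).

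**Figure D3:**
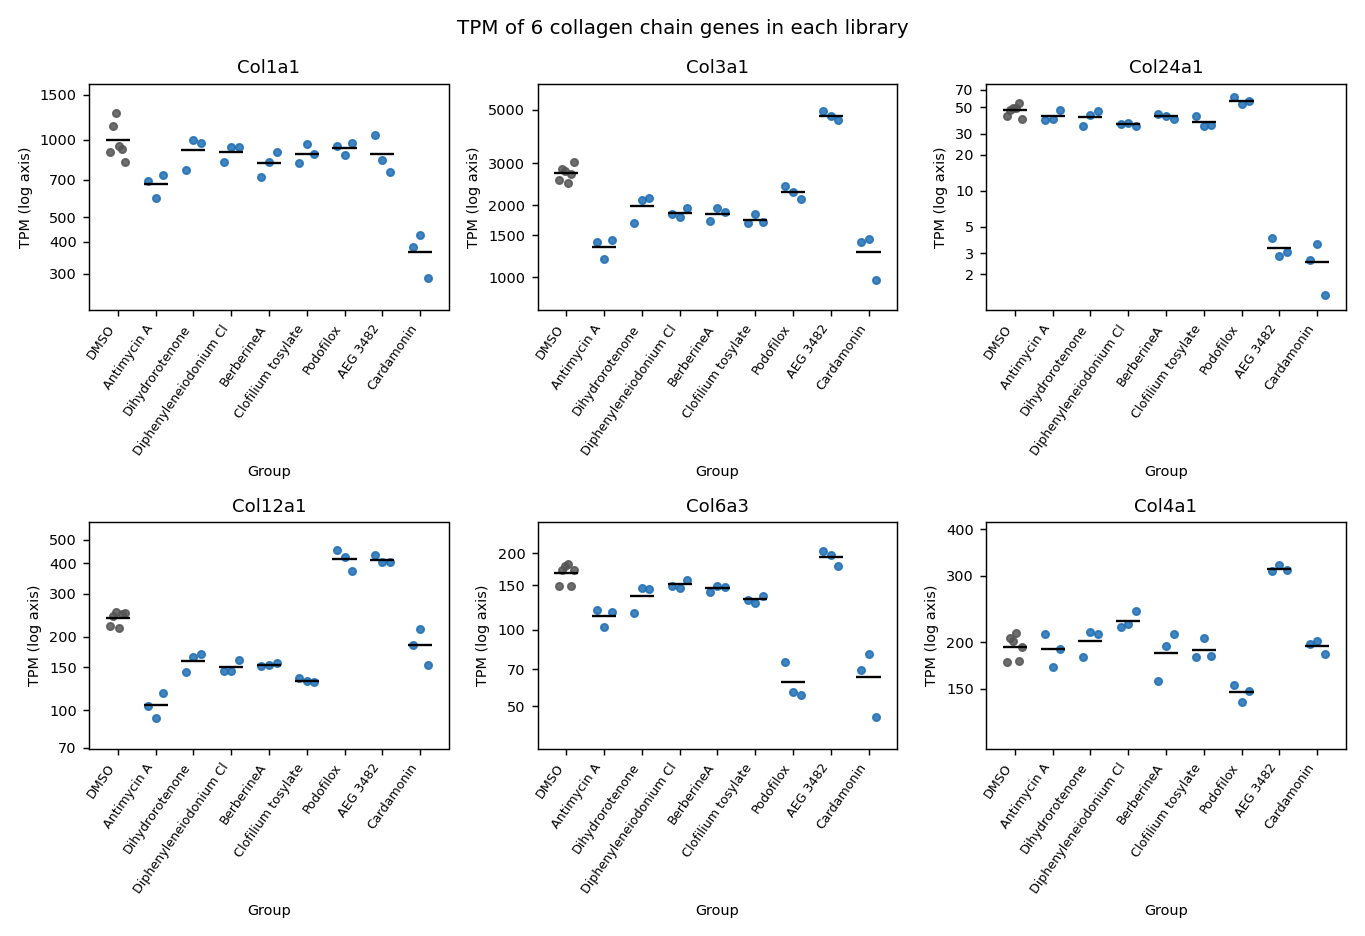
TPM (y axis, log scale) of 6 collagen chain genes in each library, by group (x axis), with points for libraries and bars for group means. Col24a1 is near 3.29 TPM in AEG 3482 and 2.51 TPM in Cardamonin against 47.1 TPM in DMSO, and Col12a1 is higher in Podofilox (418 TPM) and AEG 3482 (415 TPM) than in DMSO (239 TPM).

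Col5a1, Col5a2 and Col5a3 encode collagen V, which nucleates fibrils and limits their width. Col5a2 rose in AEG 3482 (721, 690.4 and 666 TPM against 529, 559 and 602 TPM as lowest, median and highest in DMSO, a change of 0.30, SE 0.063, adjusted p = 1.48e-04) and in Podofilox (689, 653 and 657 TPM; 0.25, SE 0.063, adjusted p = 0.00216). All 6 of those libraries exceeded DMSO. It fell in Cardamonin to 337, 357 and 278 TPM (−0.80, SE 0.063, adjusted p = 2.09e-11). Col5a1 fell most in Cardamonin, from 123, 134 and 164 TPM in DMSO to 51.00, 60.7 and 36.8 TPM (−1.49, SE 0.11, adjusted p = 6.81e-12), and also in Antimycin A (−0.55) and Podofilox (−0.46). A fall of Col5a1 in BerberineA (−0.31) was lost without BerberineA replicate 1 or 2 or DMSO replicate 2, 3, 5 or 6. Col5a3 had 171, 169 and 154 TPM in Cardamonin against 168, 189.6 and 204 TPM in DMSO, a change of −0.19 that was lost without any of 6 single libraries (Cardamonin replicates 2 and 3 and DMSO replicates 2 to 5), at an adjusted p of up to 0.182. In BerberineA Col5a3 fell to 141, 163 and 162 TPM (−0.28), all below DMSO. That call was lost without BerberineA replicate 1, at −0.21 (limma adjusted p = 0.113). In Podofilox Col5a3 held 241, 211 and 219 TPM (0.25, SE 0.08, adjusted p = 0.0132), a rise that was not called without Podofilox replicate 1, at 0.19 (adjusted p = 0.104).

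Collagen XI chains, partners of collagen V and best known from cartilage, diverged. Col11a1 (ENSMUSG00000027966, chromosome 3, 114030540 to 114220718) had 9.95, 12.7 and 15.8 TPM in DMSO. It held 4.08, 2.95 and 3.69 TPM in Podofilox, 3.97, 3.87 and 4.53 TPM in Antimycin A and 5.13, 4.78 and 5.32 TPM in Diphenyleneiodonium Cl. Those 9 libraries were all under the DMSO minimum, with log2 fold changes of −1.61 (SE 0.10, adjusted p = 2.35e-12), −1.44 (SE 0.10, adjusted p = 4.26e-11) and −1.20 (SE 0.10, adjusted p = 3.80e-09). Clofilium tosylate (5.63, 6.81 and 5.87 TPM; −0.97, SE 0.10, adjusted p = 1.50e-07), Cardamonin (6.44, 6.58 and 5.86 TPM; −0.93, SE 0.10, adjusted p = 1.11e-08), BerberineA (6.04, 6.89 and 6.84 TPM; −0.88, SE 0.10, adjusted p = 7.70e-07) and Dihydrorotenone (7.84, 7.12 and 8.60 TPM; −0.65, SE 0.10, adjusted p = 1.18e-04) fell too. AEG 3482, at 15.3, 13.4 and 13.7 TPM, stayed inside the DMSO range and did not pass (0.12, limma adjusted p = 0.31).

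Col11a2 (ENSMUSG00000024330, chromosome 17, 34039437 to 34066685) was called higher in all 8 compounds, from a low level of 2.89, 3.30 and 3.72 TPM in DMSO. Antimycin A held 8.33, 5.25 and 6.02 TPM (0.80, SE 0.15, adjusted p = 1.74e-04) and AEG 3482 5.06, 6.40 and 7.19 TPM (0.75, SE 0.15, adjusted p = 1.34e-04), all above DMSO. Diphenyleneiodonium Cl, at 4.96, 6.14 and 5.43 TPM, gave 0.60 (SE 0.15, adjusted p = 0.00437), Clofilium tosylate, at 3.78, 7.78 and 5.18 TPM, gave 0.58 (SE 0.15, adjusted p = 0.00701) and BerberineA, at 4.79, 5.47 and 4.96 TPM, gave 0.51 (SE 0.15, adjusted p = 0.0182). Only in the first 3 of these did the call hold whichever library was left out. It was lost without Clofilium tosylate replicate 2, at 0.35 (adjusted p = 0.137), without BerberineA replicate 2 or 3, at 0.46 (adjusted p = 0.0863) and 0.52 (adjusted p = 0.0521), and without Cardamonin replicate 3, at 0.38 (adjusted p = 0.0702). In Podofilox it was lost without replicate 1, at 0.40 (adjusted p = 0.0797), or replicate 3, at 0.45 (adjusted p = 0.0509). The Dihydrorotenone call was lost without any of 6 libraries (DMSO replicates 1, 3, 4 and 5 and Dihydrorotenone replicates 2 and 3), to an adjusted p of at most 0.251. Because all 8 comparisons share the DMSO libraries, a low value there enters each of them. Col27a1, a fibrillar chain of cartilage and developing tissue, fell in 7 of the 8, from 23.6 TPM in DMSO to 9.001 TPM in Cardamonin (−1.30), though its fall in Dihydrorotenone (−0.28) was lost without any of 7 single libraries (DMSO replicates 2 to 6 and Dihydrorotenone replicates 1 and 2), at an adjusted p of up to 0.395.

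Among basement membrane genes, Col4a1 and Col4a2 encode the chains of the common collagen IV trimer and lie head to head on chromosome 8, with starts 21 bases apart at 11312826 and 11312805 in GRCm38. Col4a1 (minus strand) had 176, 197 and 212 TPM in DMSO and 309.9, 321 and 311 TPM in AEG 3482, above every DMSO library (0.69, SE 0.077, adjusted p = 1.50e-08). Col4a2 (plus strand) had 150.4, 181 and 185 TPM in DMSO and 240.3, 252 and 239.5 TPM in AEG 3482 (0.50, SE 0.088, adjusted p = 1.82e-05). In Podofilox both were below DMSO, at 154, 139 and 149 and 134, 120.2 and 128 TPM (−0.40, SE 0.077, adjusted p = 1.28e-04 and −0.43, SE 0.088, adjusted p = 2.63e-04). In Cardamonin neither passed, with differences of 0.0088 and −0.11. Rises in Diphenyleneiodonium Cl, to 219, 223 and 242 and 199, 195 and 219.9 TPM, were 0.23 (SE 0.077, adjusted p = 0.0264) and 0.25 (SE 0.088, adjusted p = 0.0397). The first was lost without DMSO replicate 1 or 5 or Diphenyleneiodonium Cl replicate 2 or 3, and the second without those or replicate 1, at adjusted p-values of up to 0.148 and 0.199. Col4a5, an X-linked chain of kidney and skin basement membranes, was called lower in 6 of the 8 compounds. Unlike Col4a1 and Col4a2, it fell in AEG 3482 from 11.6, 14.2 and 16.5 TPM to 10.02, 9.41 and 10.2 TPM (−0.49, SE 0.091, adjusted p = 3.88e-05) and in Cardamonin to 3.70, 4.28 and 3.35 TPM (−1.68, SE 0.091, adjusted p = 9.77e-15). In Podofilox it fell together with them, to 6.66, 5.90 and 6.98 TPM. Its call in Diphenyleneiodonium Cl was lost without any 1 of that compound's replicates. The transcripts of Col4a1 and Col4a2 overlap in the annotation on opposite strands.

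All 6 beaded genes fell in Antimycin A, Clofilium tosylate, Cardamonin and Podofilox. In the second of these, the call of Col6a2 was lost without Clofilium tosylate replicate 1 or 3 or DMSO replicate 3, and that of Col6a3 without any of its 3 replicates or DMSO replicate 2, 3, 4 or 6, at adjusted p-values of up to 0.11 and 0.134. In AEG 3482, Col6a1, Col6a2 and Col6a3, which build the main collagen VI monomer, and Col6a4, Col6a5 and Col6a6, which encode alternative partner chains, went apart. Col6a2 rose to 575, 550.1 and 516 TPM from 387, 400.4 and 465 TPM in DMSO (0.41, SE 0.091, adjusted p = 3.34e-04). Col6a1 and Col6a3 did not pass, with 0.13 (limma adjusted p = 0.217) and 0.21 (limma adjusted p = 0.123). Col6a6 fell from 1.59, 2.28 and 3.34 TPM to 0.182, 0.110 and 0.142 TPM (−1.56, SE 0.12, adjusted p = 1.23e-11), Col6a5 from 2.08, 3.23 and 3.50 TPM to 0.366, 0.405 and 0.261 TPM (−1.54, SE 0.14, adjusted p = 5.02e-10) and Col6a4 from 0.984, 1.54 and 1.89 TPM to 0.225, 0.145 and 0.205 TPM (−1.08, SE 0.11, adjusted p = 4.21e-09). Every AEG 3482 library of these 3 low genes was below every DMSO library. Col6a4, however, reached 1 TPM in only 6 libraries, which were DMSO libraries and Dihydrorotenone replicate 2. It passed the filter through the group where it was high, so its falls in the compounds were favoured in advance. Col6a5 and Col6a6 share 3.98% and 4.69% of their 31-base words with other genes, mainly each other.

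In Podofilox the main trio fell together. Col6a3 (ENSMUSG00000048126, chromosome 1, 90765923 to 90843971) went from 149, 172 and 182 TPM in DMSO to 74.6, 56.96 and 55.4 TPM (−1.42, SE 0.12, adjusted p = 3.16e-10). Col6a1 had 653, 691 and 767 TPM in DMSO and 333, 305 and 279.6 TPM in Podofilox (−1.18, SE 0.092, adjusted p = 8.26e-11), and Col6a2 had 191, 180.2 and 173 TPM (−1.18, SE 0.091, adjusted p = 7.90e-11). No Podofilox library overlapped DMSO for any of them. In Cardamonin the values were 228, 261 and 170.4 TPM for Col6a1 (−1.68, SE 0.092, adjusted p = 1.20e-14), 153, 179 and 117 TPM for Col6a2 (−1.47, SE 0.091, adjusted p = 1.48e-13) and 69.5, 80.03 and 45.5 TPM for Col6a3 (−1.38, SE 0.12, adjusted p = 9.05e-11). Cardamonin replicate 3 was the lowest of its group in each of these and in 26 of the 34 members, and its summed collagen share was 0.352% against 0.449% and 0.482%. Without it, 24 members fell in Cardamonin.

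FACIT genes split by compound. Col12a1 (ENSMUSG00000032332, chromosome 9, 79598991 to 79718831), whose product links fibrils under tension, had 217, 246 and 252 TPM in DMSO. It reached 454, 426 and 373 TPM in Podofilox (0.80, SE 0.084, adjusted p = 1.70e-08) and 434, 404 and 405 TPM in AEG 3482 (0.79, SE 0.084, adjusted p = 6.25e-09), above all DMSO libraries. It fell to 104, 92.6 and 118 TPM in Antimycin A (−1.19, SE 0.084, adjusted p = 3.62e-11), 136, 131 and 129.9 TPM in Clofilium tosylate (−0.85, SE 0.084, adjusted p = 5.05e-08) and 145, 145 and 161 TPM in Diphenyleneiodonium Cl (−0.66, SE 0.084, adjusted p = 1.30e-06). BerberineA, at 151, 153 and 156 TPM, and Dihydrorotenone, at 144, 166 and 169.7 TPM, gave −0.63 (SE 0.084, adjusted p = 4.05e-06) and −0.58 (SE 0.084, adjusted p = 4.78e-05). All 15 libraries of those 5 compounds were below DMSO. Col12a1 was also called lower in Cardamonin, at 185, 216 and 153 TPM, all below DMSO. Col14a1, a fibril-associated chain close in structure to collagen XII, did not follow it upward: it fell from 37.96, 39.7 and 42.9 TPM in DMSO to 22.4, 17.99 and 20.2 TPM in AEG 3482 (−0.96, SE 0.11, adjusted p = 1.22e-08), 30.1, 25.5 and 21.4 TPM in Podofilox (−0.64, SE 0.11, adjusted p = 1.81e-05) and 11.3, 12.9 and 8.76 TPM in Cardamonin (−1.79, SE 0.11, adjusted p = 5.10e-14). Col16a1, which sits at the edge of fibrils and near cell adhesions, fell in the same 3 compounds, by −0.61, −0.68 and −1.26. Col9a2, Col9a3 and Col20a1 had DMSO means of 1.08, 0.868 and 1.54 TPM, and Col9a3 was called in no compound.

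The short-chain network genes Col8a1 and Col8a2 encode collagen VIII, found in Descemet's membrane and vessel walls. Col8a2 (ENSMUSG00000056174, chromosome 4, 126286793 to 126314330) had 6.97, 7.47 and 8.01 TPM in DMSO and 0.826, 0.830 and 0.485 TPM in Cardamonin, 1.53, 1.29 and 0.955 TPM in Podofilox and 1.61, 1.40 and 1.38 TPM in AEG 3482. Every one of these 9 libraries was below every DMSO library. The log2 fold changes were −2.31 (SE 0.10, adjusted p = 4.71e-17), −1.91 (SE 0.10, adjusted p = 2.63e-14) and −1.78 (SE 0.10, adjusted p = 1.81e-14). Col8a1 fell in all 8 compounds, from 31.8, 38.6 and 43.6 TPM in DMSO to 7.19 to 8.50 TPM in Cardamonin (−2.12, SE 0.076, adjusted p = 2.41e-18) and 15.2 to 18.2 TPM in AEG 3482 (−1.14, SE 0.076, adjusted p = 1.33e-12). The other 6 compounds had smaller falls in Col8a1, from −0.78 in Antimycin A (mean 21.9 TPM) to −0.32 in Diphenyleneiodonium Cl (mean 30.3 TPM). Col10a1, known from hypertrophic cartilage, fell in Podofilox (−0.41) from a DMSO mean of 1.68 TPM and passed in no other comparison with DMSO.

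Col23a1 (ENSMUSG00000063564, chromosome 11, 51289920 to 51583918), a transmembrane collagen, had 6.02, 6.77 and 7.97 TPM in DMSO. It held 0.615, 1.05 and 0.327 TPM in Cardamonin (−2.27, SE 0.11, adjusted p = 1.65e-15) and 1.32, 1.33 and 1.28 TPM in AEG 3482 (−1.77, SE 0.11, adjusted p = 4.21e-13), far under every DMSO library. Falls in BerberineA to 3.07, 4.19 and 4.45 TPM (−0.69, SE 0.11, adjusted p = 5.11e-05), in Diphenyleneiodonium Cl to 4.19, 4.11 and 4.63 TPM (−0.57, SE 0.11, adjusted p = 3.90e-04) and in Dihydrorotenone to 3.92, 5.14 and 4.87 TPM (−0.49, SE 0.11, adjusted p = 0.00417) were smaller, and the last was −0.39 (adjusted p = 0.0529) without Dihydrorotenone replicate 1. It fell in Antimycin A, Clofilium tosylate and Podofilox as well, by −0.87, −0.54 and −0.41. The multiplexins bridge basement membranes to the matrix beneath. Col18a1 (ENSMUSG00000001435, chromosome 10, 77052178 to 77166548), the source of endostatin, rose from 127, 136 and 152 TPM in DMSO to 181, 194 and 198 TPM in Diphenyleneiodonium Cl (0.47, SE 0.068, adjusted p = 1.01e-05), 178, 197 and 181 TPM in Clofilium tosylate (0.42, SE 0.068, adjusted p = 4.36e-05) and 179.6, 156 and 172 TPM in Antimycin A (0.29, SE 0.068, adjusted p = 0.00132), all above DMSO. It fell to 95.9, 83.2 and 85.5 TPM in Podofilox (−0.64, SE 0.068, adjusted p = 2.11e-08) and 112, 114 and 112 TPM in Cardamonin (−0.29, SE 0.068, adjusted p = 4.73e-04). Col15a1, at a DMSO mean of 2.24 TPM, fell in Podofilox and AEG 3482 by −1.07 and −1.05. Col7a1, the anchoring fibril chain that ties epidermis to dermis, had 2.33 TPM in DMSO and fell in AEG 3482 (−0.79, SE 0.17, adjusted p = 2.66e-04). Col26a1 and Col2a1 were called in no compound.

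Direct contrasts, which need no DMSO library, showed where compounds differed. Cardamonin and AEG 3482 both lowered Col24a1, Col8a2 and Col23a1, yet 21 of the 34 members were lower and 0 higher in Cardamonin than in AEG 3482, where 55.3% of all genes were called (22.6% higher and 32.7% lower). The members' median difference was −0.55 on the log2 scale against −0.059 for all genes. Differences reached −1.91 (SE 0.11, adjusted p = 2.19e-13) for Col3a1, −1.88 (SE 0.11, adjusted p = 1.20e-13) for Col6a2, −1.56 (SE 0.13, adjusted p = 1.64e-10) for Col5a1 and −1.27 (SE 0.15, adjusted p = 8.87e-08) for Col1a1. Of the 21, 10 were lower by at least 2-fold, beside 6.71% of all genes in either direction. For Col24a1 the contrast did not pass, at −0.33 (SE 0.16, adjusted p = 0.0762). It passed with a pseudocount of 0.1 TPM (−0.47, limma adjusted p = 0.0498) and without Cardamonin replicate 2 (−0.55, limma adjusted p = 0.00308). Col6a4, Col6a5 and Col6a6, low in both, had differences of −0.071, 0.059 and −0.11 that did not pass in the main fit. With the pseudocount of 0.1 TPM Col6a6 passed (−0.63, limma adjusted p = 0.0217).

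Podofilox exceeded Cardamonin in 20 members and was below it in 5 (all genes 57.8%, 29.1% higher and 28.7% lower), with a median of 0.47 against 0.00096. The largest of these were Col24a1 at 4.09 (SE 0.16, adjusted p = 3.83e-17), Col23a1 at 1.86 (SE 0.13, adjusted p = 4.05e-12) and Col8a1 at 1.52 (SE 0.088, adjusted p = 1.16e-13). Differences of at least 2-fold were 9, all higher in Podofilox, beside 9.54% of all genes. The 5 lower in Podofilox were Col11a1 (−0.68), Col4a1 (−0.41), Col4a2 (−0.32), Col18a1 (−0.35) and Col10a1 (−0.35). For Col6a3 the difference did not pass, at −0.034 (SE 0.14, adjusted p = 0.851). Antimycin A was below Dihydrorotenone in 10 members and above it in 0 (all genes 15.5%, 11.6% higher and 3.91% lower). The higher share of all called genes in that contrast went from 74.8% to 52.1% after median-ratio scaling, under which 15 members were lower and 0 higher. None of the 10 reached 2-fold (all genes 0.682%). Among them were Col6a6 at −0.88 (SE 0.14, adjusted p = 4.58e-05), Col11a1 at −0.79 (SE 0.12, adjusted p = 3.74e-05), Col12a1 at −0.61 (SE 0.10, adjusted p = 7.46e-05) and Col3a1 at −0.55 (SE 0.11, adjusted p = 9.55e-04).

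Ratios of partner chains were computed within each library, so that scaling cancels. An exact two-sided permutation test of 3 against 6 libraries cannot give a p below 0.0238, and with 32 tests none passed after Benjamini-Hochberg adjustment. In 11 of the 32 the groups did not overlap, each at that smallest p and an adjusted p of 0.0693. The ratio of Col3a1 to Col1a1 was 2.79 ± 0.510 in DMSO (SD, n = 6; these ratios are of TPM) and 5.46 ± 0.653 in AEG 3482 (SD, n = 3). Ratios of 1.996 ± 0.0375 in Antimycin A and 1.97 ± 0.101 in Clofilium tosylate were below every DMSO library. Col1a1 to Col1a2 stood at 0.595 ± 0.0555 in DMSO, 0.791 ± 0.0488 in AEG 3482 and 0.490 ± 0.0160 in Antimycin A, and at 0.603 ± 0.0350 in Cardamonin, where both chains had fallen. Col6a1 to Col6a2 was 1.69 ± 0.0388 in DMSO, 2.002 ± 0.0260 in BerberineA, 1.77 ± 0.0533 in Antimycin A, 1.46 ± 0.0194 in Cardamonin and 1.39 ± 0.0309 in AEG 3482. In Podofilox, where both chains fell more than 2-fold, it was 1.68 ± 0.0641. Col4a1 to Col4a2 was 1.13 ± 0.0387 in DMSO, 1.29 ± 0.0131 in AEG 3482 and 1.23 ± 0.0633 in Cardamonin.

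**Figure D4:**
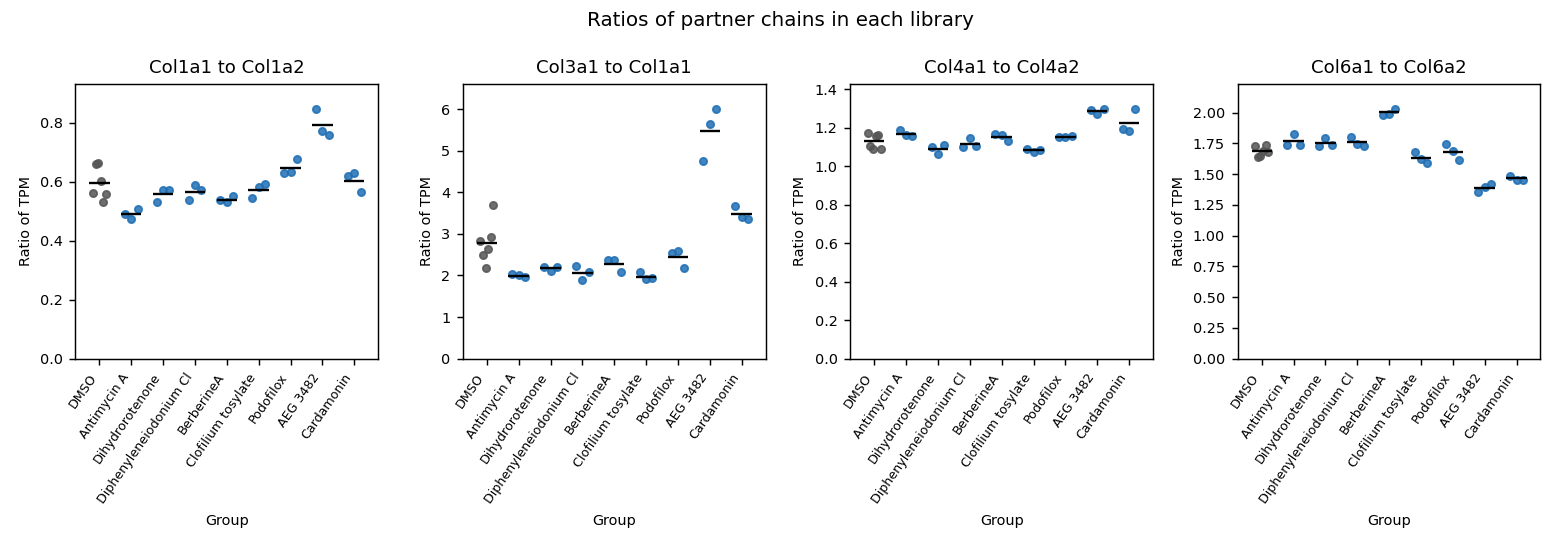
Ratio of TPM (y axes, from 0) for 4 partner pairs of collagen chains in each library, by group (x axis), with points for libraries and bars for group means. Col3a1 to Col1a1 in AEG 3482 (mean 5.46) lies above all DMSO points (mean 2.79).

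The genes that modify, fold, export and take up collagen were followed with a list of 40, of which 37 were tested (Colgalt2, Tll2 and Itga2 were not). In Cardamonin 9 rose and 25 fell, in AEG 3482 12 rose and 15 fell, in Podofilox 13 rose and 15 fell and in Antimycin A 4 rose and 23 fell. Clofilium tosylate had 2 higher and 19 lower, Diphenyleneiodonium Cl 4 and 16, BerberineA 2 and 13 and Dihydrorotenone 2 and 12. Of those tested, 91.9% were called in Cardamonin (70.3% of all genes), 75.7% in Podofilox (46.2%) and 73% in Antimycin A (37.3%). In AEG 3482 the called share was 73%, near the 68.1% of all genes. It was 56.8% in Clofilium tosylate (23.4%), 54.1% in Diphenyleneiodonium Cl (25.7%), 40.5% in BerberineA (21.7%) and 37.8% in Dihydrorotenone (14.4%). The list's medians ran from −0.55 in Cardamonin to −0.03 in Podofilox. Of the 10 prolyl hydroxylation genes, 10 fell in Antimycin A (15.5% of all genes fell), 8 in Cardamonin (33%) and 8 in Clofilium tosylate (12.5%). In BerberineA (9.16%) and Diphenyleneiodonium Cl (11.7%) 6 fell, and in Dihydrorotenone (9.43%), AEG 3482 (26.8%) and Podofilox (20%) 4 fell. Rises among these 10 genes numbered 4 in Podofilox, 3 in AEG 3482, 2 in Cardamonin and 0 in the other 5. All 3 chaperone genes fell in Antimycin A, BerberineA, Clofilium tosylate, Dihydrorotenone and Diphenyleneiodonium Cl. In Cardamonin 2 fell, in AEG 3482 2 fell and 1 rose, and in Podofilox none passed. Other subgroups were mixed. All 4 tested lysyl hydroxylation and glycosylation genes rose in AEG 3482, but in Cardamonin 1 rose and 2 fell. Of 4 secretion genes, 3 rose in Podofilox, 3 rose and 1 fell in Cardamonin, and none passed in AEG 3482. Among propeptide removal genes 1 rose and 6 fell in Cardamonin.

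Among collagen receptors, Itga11, the integrin chain that binds collagen I on fibroblasts, had 52.8 ± 5.29 TPM (SD) over the 6 DMSO libraries and 3.66 ± 1.78 TPM over the 3 of Cardamonin, a fall with a log2 fold change of −3.60 (SE 0.15, adjusted p = 8.70e-17), and also fell in Podofilox (−1.54) and AEG 3482 (−1.40). Itga1, another collagen-binding integrin chain, fell from 10.3 ± 1.91 TPM to 1.36 ± 0.330 TPM in Cardamonin (−2.25, SE 0.11, adjusted p = 1.30e-15). It fell in every other compound too, with −1.57 in AEG 3482, −1.23 in Podofilox and −1.11 in Antimycin A. Itga10 rose in AEG 3482, from 5.98 ± 0.807 TPM to 15.97 ± 0.648 TPM (1.29, SE 0.10, adjusted p = 1.12e-11). The kinase receptor Ddr1 fell in Cardamonin (−1.19), Podofilox (−0.82), AEG 3482 (−0.45), Antimycin A (−0.41) and Clofilium tosylate (−0.36). Ctsk, a protease that degrades collagen, rose in Antimycin A from 488 ± 76.7 TPM to 971 ± 15.3 TPM (1.005, SE 0.08, adjusted p = 2.81e-10) and was higher in all compounds but AEG 3482, where it was −0.30.

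Among enzymes, P4ha3, a prolyl 4-hydroxylase subunit, fell from 27.7 ± 0.658 TPM to 2.77 ± 1.13 TPM in Cardamonin (−2.97, SE 0.13, adjusted p = 9.30e-17). It also fell in Podofilox (−1.46), AEG 3482 (−1.37), Antimycin A (−0.48) and Clofilium tosylate (−0.41). P3h2, a prolyl 3-hydroxylase, fell from 19.9 ± 2.36 TPM to 3.16 ± 1.01 TPM in AEG 3482 (−2.35, SE 0.12, adjusted p = 3.80e-15). P3h2 fell in every other compound as well, most in Cardamonin (−1.62). Pcolce and Pcolce2 enhance removal of the C-propeptide. Pcolce fell by 1.41 on the log2 scale in Cardamonin, from 1036 ± 87.7 TPM to 389 ± 22.9 TPM. It fell in every other compound too, with −1.12 in Podofilox. Pcolce2 had a change of −1.51 in Cardamonin and −1.08 in Antimycin A. Fkbp14, a folding catalyst for collagen, fell in 7 of the 8 compounds, with −1.08 in Antimycin A and −1.32 in Cardamonin. Creb3l1, a transcription factor that activates collagen I genes, fell in Cardamonin from 54.6 ± 6.20 TPM to 17.9 ± 1.97 TPM (−1.56, SE 0.091, adjusted p = 4.94e-14). It was also lower in AEG 3482 (−0.74) and Podofilox (−0.23) and passed in no other compound. In AEG 3482 Col1a2 fell but Col1a1 did not pass in the main fit. In Antimycin A both chains were called lower while Creb3l1 did not pass (−0.18). Any part of Creb3l1 in the changes of these chains was not tested. In contrast P3h1 rose in Podofilox (0.59), AEG 3482 (0.65) and Cardamonin (0.29). It was chosen after its values were seen, as was Serpinh1, the collagen-specific chaperone HSP47, with 0.37 in AEG 3482 and −0.51 in Antimycin A.

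**Figure D5:**
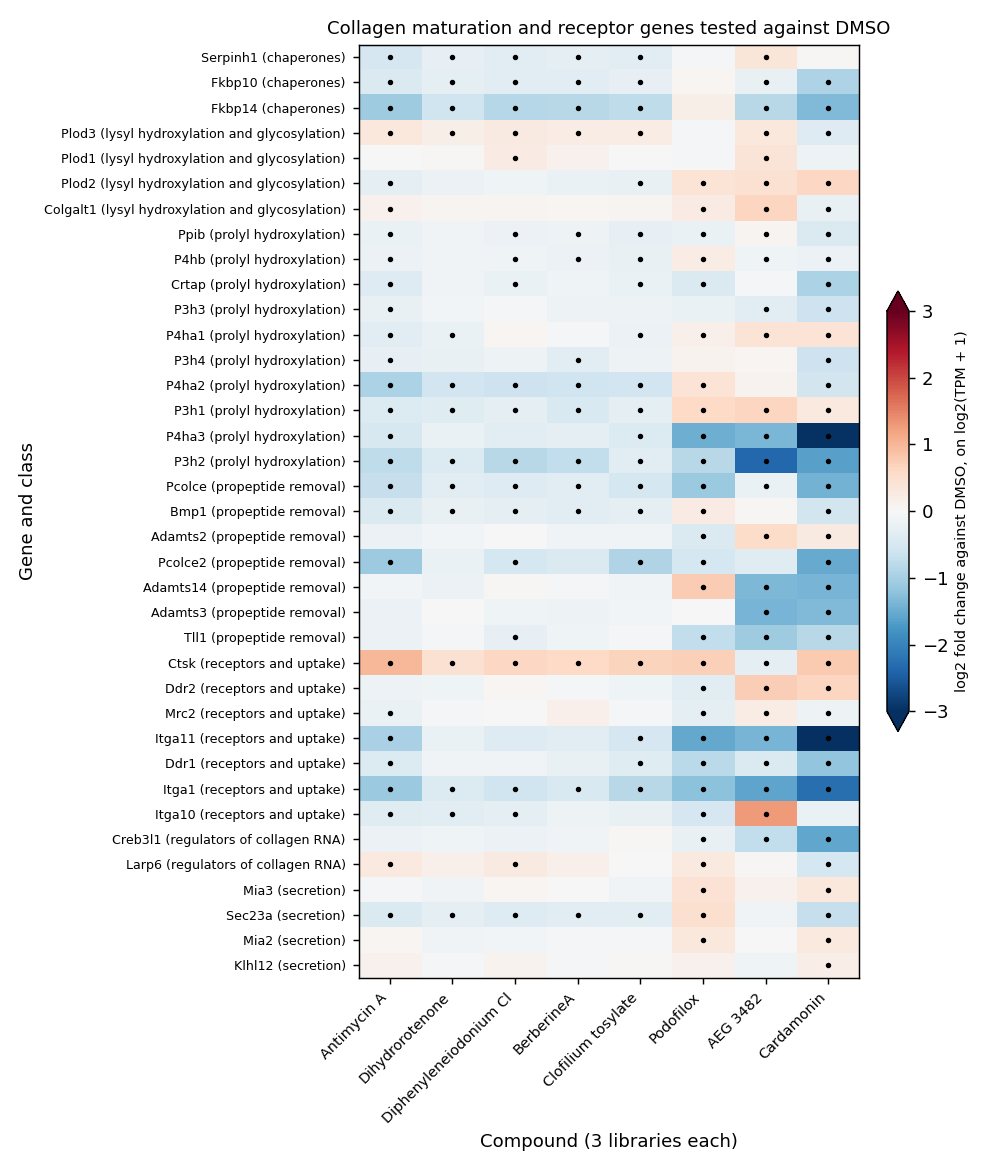
log2 fold change against DMSO (colour, on log2(TPM + 1), limits −3 and 3) of the 37 tested collagen maturation and receptor genes (rows, with subgroup) in 8 compounds (columns), with dots for an adjusted p under 0.05. In Cardamonin Itga11 (−3.60) passes the colour limit and P4ha3 (−2.97) is just inside it.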

How the data were processed

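Total RNA depleted of ribosomal RNA was sequenced from 30 libraries of 1 fibroblast line, and samples were grouped by their treatment labels (8 compounds with 3 libraries each and DMSO with 6, although the series text names 5 DMSO replicates). The deposited table holds TPM, which the authors made with kallisto 0.43.1 and tximport, per the submitters' processing notes and the series text, which also name mm10. The transcript index and strand setting are not given in the sources used here. TPM carries no depth, so no count test or counting interval was possible, and a value can move because other genes of the library moved.

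Gene identifiers were matched to GENCODE M21 (29505 of 29861), and coordinates are those of GRCm38. Genes that reached 1 TPM in 3 or more libraries were fitted with limma 3.58.1 in R 4.3.3 on log2(TPM + 1), with 1 mean per group over all libraries, an intensity trend, no covariate, and Benjamini-Hochberg adjustment over 13644 genes within each comparison. The fit was tested on simulated data. Chain ratios were compared by exact permutation in Python 3.11.15 with scipy 1.17.1.

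Members given with values in every library were, per compound, the 3 largest rises and 3 largest falls past the threshold whose higher group averaged 5 TPM or more. Other members are described by class, and those among them printed by library were chosen after their values were seen. Maturation genes were named at a log2 fold change of at least 1 in size in a compound and the same 5 TPM. The members and lists were chosen with earlier results of these data known. Upstream sequence was planned for Col4a1 and Col4a2, but their windows lie in annotated exons, so other genes are shown. Protein sequences were not used here. Alternatives were a pseudocount of 0.1 TPM, other filters on low values, median-ratio scaling, rescaling without the 20 most abundant genes or without the members, no trend, the 2 groups alone, a replicate block and leaving out each library.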

Additional observations from a re-analysis of the deposited data

Results flagged for a closer look

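The 6 DMSO libraries allow a check for a library set apart from the rest (Dixon's test). Of 39 values checked in them, 2 were set apart, and chance alone sets apart about 1 in 20. Col7a1, the anchoring fibril chain, had 3.73 TPM in DMSO replicate 4, while the other 5 libraries held 1.79 to 2.50 TPM. Col9a3, a chain of cartilage collagen IX, had 0.291 TPM in DMSO replicate 1, while the others held 0.869 to 1.11 TPM.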

How the results depend on the processing

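Of the 213 called changes of members in the 11 comparisons, 172 held the same direction and passed under every alternative that could fit them, and none reversed. Requiring a mean of at least 5 TPM tests fewer members: the rises were then 1 in Antimycin A, 0 in BerberineA, 0 in Cardamonin, 1 in Clofilium tosylate, 0 in Dihydrorotenone and 3 in Diphenyleneiodonium Cl, and the falls 8 in AEG 3482, 8 in BerberineA, 5 in Dihydrorotenone and 9 in Diphenyleneiodonium Cl. With no filter beyond a value above 0, which tests more genes, the rises were 2 in Cardamonin, 0 in Dihydrorotenone and 3 in Diphenyleneiodonium Cl. Fitting the 2 groups alone gave 5 called members in Antimycin A against Dihydrorotenone, and 0 rises and 5 falls in Dihydrorotenone. Median-ratio scaling gave 15 called members in Antimycin A against Dihydrorotenone, in place of 10. Without an intensity trend Dihydrorotenone had 0 rises; the cause was not tested.

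Replicate numbers did not pair the libraries: correlations of same-numbered deviations ran from −0.055 to 0.12 over 24 pairs, 2 exceeded 0.1, and in 10 a library correlated best with its own number. With the replicate block, 15 of the 213 called changes were lost and none reversed, and the rises were 0 in BerberineA, 0 in Dihydrorotenone and 3 in Diphenyleneiodonium Cl.

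Leaving out 1 library at a time, the rises ranged from 7 to 7 in AEG 3482, 2 to 2 in Antimycin A, 0 to 2 in BerberineA, 0 to 1 in Cardamonin, 1 to 2 in Clofilium tosylate, 0 to 1 in Dihydrorotenone, 2 to 5 in Diphenyleneiodonium Cl and 2 to 4 in Podofilox. The falls ranged from 14 to 15 in AEG 3482, 17 to 21 in Antimycin A, 9 to 14 in BerberineA, 24 to 27 in Cardamonin, 12 to 15 in Clofilium tosylate, 4 to 9 in Dihydrorotenone, 11 to 15 in Diphenyleneiodonium Cl and 21 to 23 in Podofilox. The called members ranged from 20 to 21 in Cardamonin against AEG 3482, 24 to 26 in Podofilox against Cardamonin and 7 to 13 in Antimycin A against Dihydrorotenone. No chain ratio passed the adjusted threshold with a difference of medians or a ratio of TPM + 1 in place of the main test. Depth is unknown, so changes of members near 1 TPM have no counting error beside them.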
